A study of Mus musculus with 12 samples.

Results

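A group of 10 target genes of the transcription factor p53 was followed across the 12 arrays of a mouse reprogramming study. The genes were Cdkn1a, Ccng1, Mdm2, Trp53inp1, Sesn1, Sesn2, Bax, Bbc3, Pmaip1 and Perp, and they were found by matching each gene probe's deposited name, or the current symbol of its accession, to these 10 names. All 10 were on the array, through 16 of its 41174 gene probes, among 25427 genes tested. The samples were embryonic stem cells from 129/Ola mice (ES), mouse embryonic fibroblasts (MEF), neural stem cell-like cells made by transducing MEF with Bmi1 (Bmi1 spheres) and 9 induced pluripotent stem (iPS) lines. Each sample was hybridised to 1 one-colour array.

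Every iPS line had received Oct4. The BOiPS lines (2 lines) were embryonic fibroblasts reprogrammed by the pair Bmi1 and Oct4. The SOiPS line (1 line), the OOiPS lines (2 lines) and the POiPS lines (2 lines) came from embryonic fibroblasts treated with Shh, oxysterol or purmorphamine, agents that activate the hedgehog pathway, and then given Oct4. The OOiPS-TTF lines (2 lines) used the oxysterol and Oct4 pair on fibroblasts of the adult tail tip. ES, MEF, Bmi1 spheres and SOiPS were single arrays with no replicate. The labels name no strain or passage for the fibroblasts. Each iPS line is a separate line, so p-values measure the spread between lines; nothing says that the 2 lines of a group came from separate cultures.

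p53 is a transcription factor that is stabilised by DNA damage, oncogene activity and other stress, and it binds paired decamers near its target genes. Its targets include inhibitors of the cell cycle, the ubiquitin ligase that degrades p53 itself, regulators of oxidative and nutrient stress, and proteins that start apoptosis at the mitochondrion. In fibroblasts p53 and its upstream activator Arf, a product of Cdkn2a, limit the yield of iPS colonies, and Bmi1 is known as a repressor of Cdkn2a.

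Promoter letters are shown for the 3 members whose 250 bases before a transcription start held a close match to the p53 response element. The sequences come from RefSeq (GRCm38.p6), and run 5′ to 3′ on the gene's strand up to the base before the start. Capitals mark every pair of decamers that matched with at most 1 mismatch.

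Cdkn1a promoter, chr17:29090729-29090978, plus strand: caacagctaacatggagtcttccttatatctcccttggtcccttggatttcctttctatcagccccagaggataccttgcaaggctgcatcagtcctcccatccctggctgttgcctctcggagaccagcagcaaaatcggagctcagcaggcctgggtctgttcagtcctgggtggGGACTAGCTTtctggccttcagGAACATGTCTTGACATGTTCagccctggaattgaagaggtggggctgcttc
Ccng1 promoter, chr11:40755287-40755536, minus strand: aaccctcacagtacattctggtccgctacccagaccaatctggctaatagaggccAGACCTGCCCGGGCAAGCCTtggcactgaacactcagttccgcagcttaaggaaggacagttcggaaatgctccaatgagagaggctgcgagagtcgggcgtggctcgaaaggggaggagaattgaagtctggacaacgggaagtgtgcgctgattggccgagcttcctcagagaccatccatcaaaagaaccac
Bax promoter, chr7:45466899-45467148, minus strand: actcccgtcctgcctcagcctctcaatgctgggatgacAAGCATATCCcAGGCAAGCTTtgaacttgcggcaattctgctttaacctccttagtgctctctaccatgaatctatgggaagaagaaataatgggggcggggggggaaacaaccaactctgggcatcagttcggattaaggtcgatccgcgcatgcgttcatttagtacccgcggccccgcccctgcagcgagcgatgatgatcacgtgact

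The element was searched by its name as a pair of 10-base decamers with a spacer of 0 to 13 bases; it reads the same on both strands. The Cdkn1a window shown held a pair with 0 mismatches and a spacer of 12 bases, from 73 to 42 bases before its start. A second pair in that window overlapped the first, had 1 mismatch and no spacer, and ran from 51 to 32 bases before that start. Cdkn1a also had a window at another start further downstream, chr17:29093519-29093768, where the best pair had 5 mismatches. The close match was therefore near the upstream start only. The Ccng1 window had a pair with 1 mismatch and no spacer, and the Bax window a pair with 1 mismatch and a spacer of 1 base. Of all 32851 promoter windows of this length in the table, 0.0639% held a pair with 0 mismatches and 0.898% a pair with at most 1. Promoters of 7 of the 10 members, in 11 windows, were in the table. A match is a description of letters and not a measured site.

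Array values are log2 processed signals minus the array's 75th percentile, so a value of 0 lies at that percentile and a step of 1 is a 2-fold difference. The 75th percentile ran from 1340 to 2156 intensity units, and 58.4% to 80.0% of gene spots were well above background; between 381 and 572 gene probes were saturated on an array. The labels were checked on summed linear levels of marker lists, of 10 genes each but for 6 leukocyte markers. The pluripotency markers summed to 153 in ES and to between 126 and 183 in the iPS lines, against 1.44 in MEF and 0.876 in Bmi1 spheres. The fibroblast markers summed to 156 in MEF, 81.5 in Bmi1 spheres, 4.45 in ES and between 3.49 and 45.8 in the iPS lines. The neural stem markers summed to 3.90 in Bmi1 spheres, 5.56 in MEF, 6.57 in ES and between 5.69 and 14.5 in the iPS lines. That sum could not check the neural label of the spheres, since ES and every iPS line exceeded both spheres and MEF. In spheres against MEF, 6 of the 10 neural stem markers were higher, with a median log2 difference of 0.19. Nes was at 0.41 in spheres and 0.30 in MEF. The sphere sample is called iPS in 1 label field; its Pou5f1 value was -5.56, and between 3.35 and 4.12 in the iPS lines. Leukocyte markers summed to 6.85 in MEF, 7.96 in Bmi1 spheres, 9.53 in ES and between 8.41 and 16.5 in the iPS lines.

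**Figure D1:**
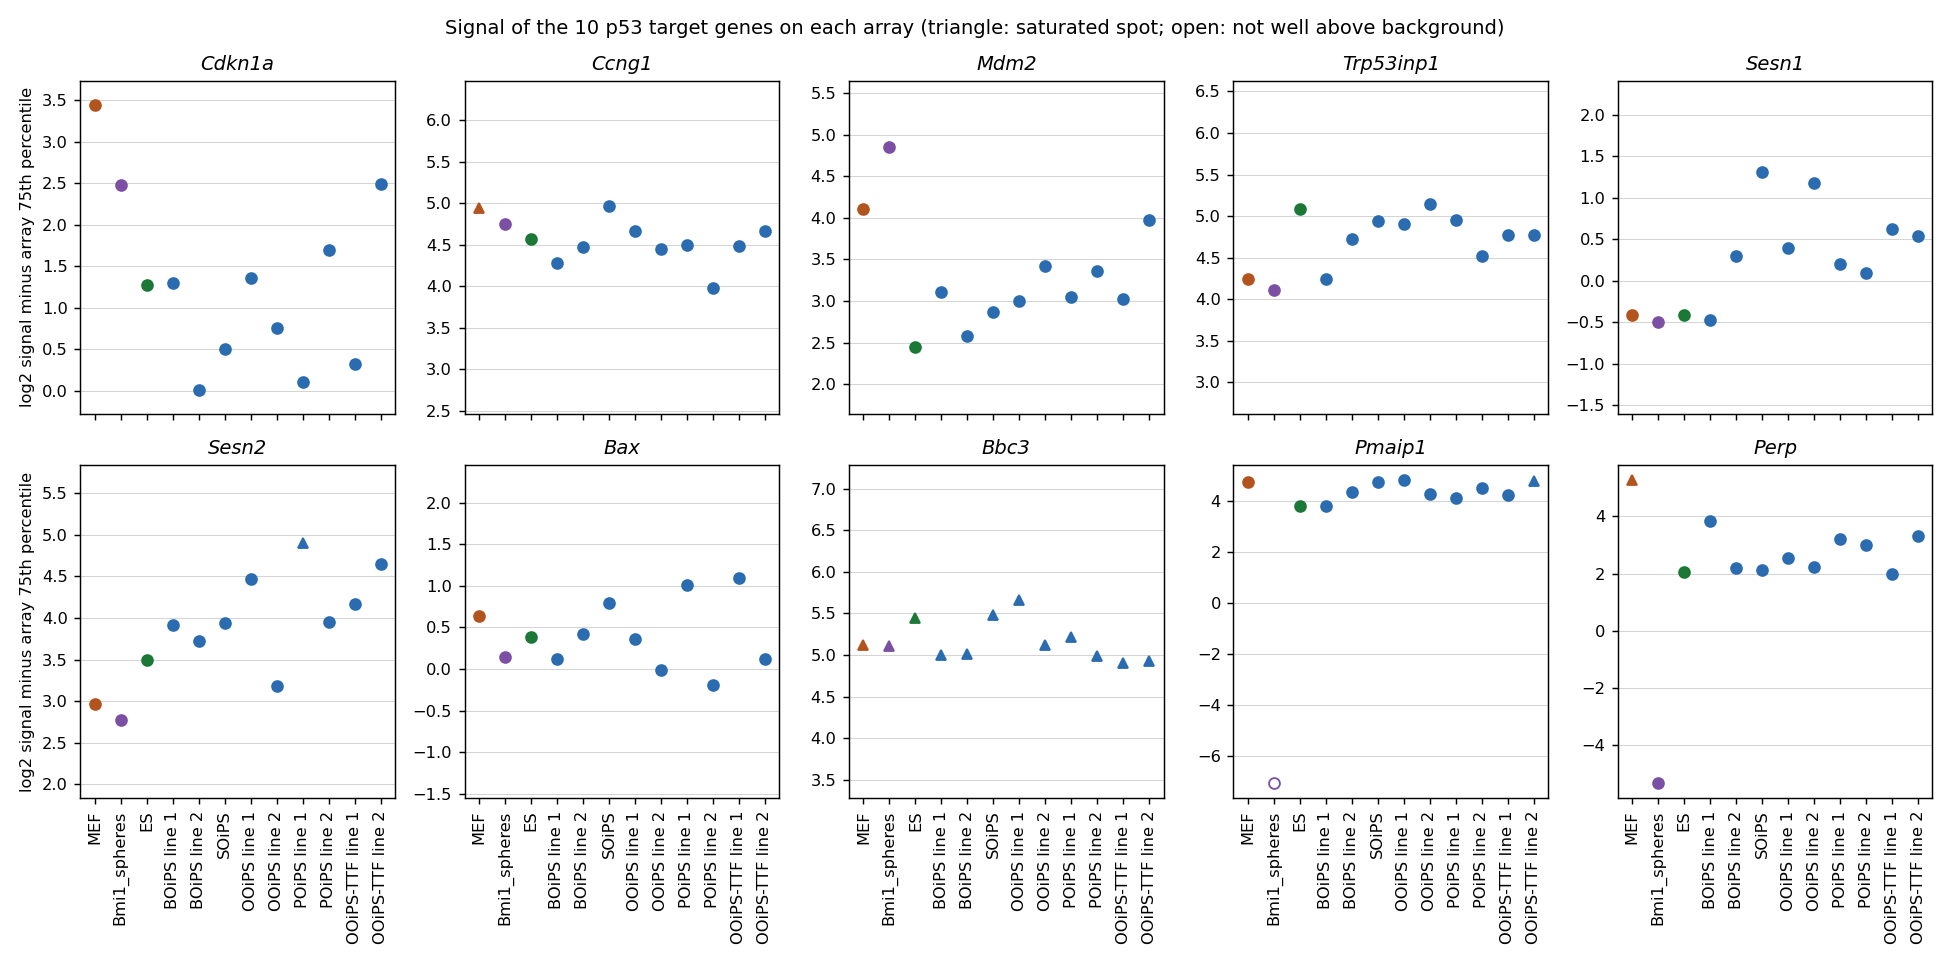
Log2 signal minus the array's 75th percentile (vertical axis) of the 10 p53 target genes on each of the 12 arrays (horizontal axis; brown MEF, purple Bmi1 spheres, green ES, blue iPS lines), with triangles for saturated spots and an open circle for a spot not well above background. Bbc3 is saturated on all 12 arrays, and Pmaip1 and Perp lie at -7.04 and -5.30 in Bmi1 spheres, far below every other array.

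The first 3 comparisons set the iPS lines as 1 class against MEF, ES and Bmi1 spheres. Against MEF, the only member that passed the test was Perp, which was lower in the iPS lines, at a log2 difference of -2.54. Cdkn1a differed by -2.50 and did not pass. Against ES no member passed the test. Against Bmi1 spheres, Pmaip1 and Perp were higher in the iPS lines and no other member passed. Because MEF was used in several comparisons, the differences from MEF given below for iPS lines, ES and Bmi1 spheres share that 1 array.

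Cdkn1a encodes p21, the inhibitor of cyclin-dependent kinases through which p53 arrests the cell cycle. It was at 3.44 in MEF, 2.48 in Bmi1 spheres and 1.28 in ES. In the 9 iPS lines its lowest value was 0.01 in BOiPS line 2, its median 0.75 and its highest 2.49 in OOiPS-TTF line 2. All 9 lines lay below MEF and 8 of 9 below the spheres, while 4 of 9 lay above ES. The iPS mean was 5.64-fold below MEF, a log2 difference of -2.50 (SE 0.83), which did not pass limma's test with Benjamini-Hochberg adjustment over all genes (adjusted p = 0.0813). Its 95% interval ran from -4.33 to -0.66. The call depended on single lines: without OOiPS-TTF line 2 the difference was -2.69 with an adjusted p of 0.0333, and over all alternatives the adjusted p ran from 0.0253 to 0.229.

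Cdkn1a varied widely among the iPS lines. Its SD over the 9 lines was 0.82. This was larger than that of 80.0% of the 14156 genes well above background on all 12 arrays, whose median SD was 0.53. Both BOiPS lines differed from each other, at 1.30 and 0.01, as did both POiPS lines, at 0.11 and 1.69, and both OOiPS-TTF lines, at 0.32 and 2.49. The 8 to 10 spots of the probe on an array had an SD from 0.039 to 0.13. The 4 lines with the most Cdkn1a, OOiPS-TTF line 2, POiPS line 2, OOiPS line 1 and BOiPS line 1, were also the 4 with the highest summed fibroblast markers, at 45.8, 30.8, 12.3 and 6.26, against 3.49 to 5.42 in the other 5 lines. Of the 10 fibroblast markers, 10 were well above background in MEF and 5 to 9 in an iPS line. This order was looked at after the values were seen, and the part of fibroblast RNA in the Cdkn1a values was not tested. In bulk samples, fewer cells of a type and less RNA per cell cannot be told apart. The proliferation markers summed to 48.9 in OOiPS-TTF line 2, the lowest of the iPS lines, and to 22.6 in MEF. Among the 4 lines with the most Cdkn1a they also summed to 59.8 in POiPS line 2, 57.6 in BOiPS line 1 and 68.9 in OOiPS line 1. In the other 5 lines they ran from 60.5 in BOiPS line 2 to 75.8 in SOiPS. Their relation to Cdkn1a was not tested.

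Ccng1 encodes cyclin G1, a p53 target that recruits a phosphatase to Mdm2. On its brightest probe it was at 4.56 in ES, 4.75 in Bmi1 spheres and from 3.98 to 4.96 in the iPS lines with a median of 4.49. In MEF it was saturated at 4.95. The SD of this probe over the iPS lines was 0.27, larger than that of 10.3% of the genes well above background on all 12 arrays. Its signals lay near the top of the scale. The second Ccng1 probe, saturated on 0 arrays, varied more: it was at 3.71 in MEF, 3.47 in ES and 3.11 in Bmi1 spheres, and ran from 2.31 in POiPS line 1 to 4.52 in OOiPS line 1 with an SD of 0.65 over the iPS lines. On the brightest probe the iPS mean was at least 1.37-fold below MEF, a log2 difference of -0.45 (SE 0.40, adjusted p = 0.480 in limma), with MEF saturated. The second probe gave -0.82.

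Mdm2 encodes the ubiquitin ligase that marks p53 for degradation and closes the feedback loop. It was highest in Bmi1 spheres, at 4.85, followed by MEF at 4.11, and lowest in ES at 2.44. The iPS lines ran from 2.58 in BOiPS line 2 to 3.97 in OOiPS-TTF line 2, with a median of 3.05. Thus all 9 iPS lines lay above ES and below both MEF and the spheres. None of the differences passed in limma: it was -0.96 against MEF (SE 0.48, adjusted p = 0.227), 0.71 against ES (95% interval -0.36 to 1.78) and -1.69 against the spheres (SE 0.48, adjusted p = 0.0576). The last of these passed in 5 of 22 alternatives, with adjusted p from 0.0174 to 0.296.

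The second Mdm2 probe varied more over the iPS lines, with an SD of 0.71 against 0.40 on the brightest, and showed a different order. Its letters are given since it reads the same gene at another place, and the array design puts it on chr10 of the mm7 build; it has 1 forward frame free of stop codons.

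Mdm2 second probe, chr10:117204040-117204099, minus strand: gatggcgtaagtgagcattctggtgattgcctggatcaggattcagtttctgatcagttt

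This probe was at 0.06 in MEF, 0.01 in Bmi1 spheres and -0.36 in ES, and in the iPS lines it ran from -1.57 in BOiPS line 2 to 0.78 in OOiPS line 1. It gave -0.58 for iPS lines against MEF, -0.16 against ES and -0.54 against the spheres. The difference from ES therefore had opposite signs in the 2 probes, and the brightest probe stands for the gene here only by rule.

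Trp53inp1 encodes a nuclear protein that promotes p53 phosphorylation and cell death. It was at 4.24 in MEF and 4.11 in Bmi1 spheres, and at 5.09 in ES. The iPS lines ran from 4.25 in BOiPS line 1 to 5.14 in OOiPS line 2, with a median of 4.77. On the brightest probe all 9 were above MEF and the spheres, the lowest only just above MEF, and 1 of 9 was above ES. The second probe did not share that order. There OOiPS-TTF line 1 at 2.38 and OOiPS-TTF line 2 at 2.93 lay below MEF at 2.95 and the spheres at 2.97. The mean difference from MEF on the brightest probe was 0.54 (SE 0.40, adjusted p = 0.403 in limma), smaller than a 2-fold step, and the second probe gave 0.35.

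Sesn1 and Sesn2 encode sestrins, which restrain mTORC1 signalling and oxidative stress. Sesn1 was at -0.41 in both MEF and ES and at -0.50 in Bmi1 spheres. The iPS lines ran from -0.47 in BOiPS line 1 to 1.31 in SOiPS, with a median of 0.39, and 8 of 9 lay above MEF and ES. The difference from MEF was 0.87 (SE 0.59, adjusted p = 0.365 in limma). The 2 other Sesn1 probes were well above background on only 6 and 5 arrays.

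Sesn2 was at 2.96 in MEF, 2.77 in Bmi1 spheres and 3.49 in ES. The iPS lines ran from 3.19 in OOiPS line 2 to 4.90 in POiPS line 1, where the spot was saturated, with a median of 3.95. All 9 lines were above MEF and the spheres and 8 of 9 above ES. The iPS mean was 2.20-fold above MEF, a log2 difference of 1.13 (SE 0.57, adjusted p = 0.228 in limma). The second Sesn2 probe gave -0.38 for that comparison, so the direction was not shared by both probes. Against the spheres both probes gave the same size, 1.33 and 1.33, with an adjusted p of 0.205 for the brighter one.

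**Figure D2:**
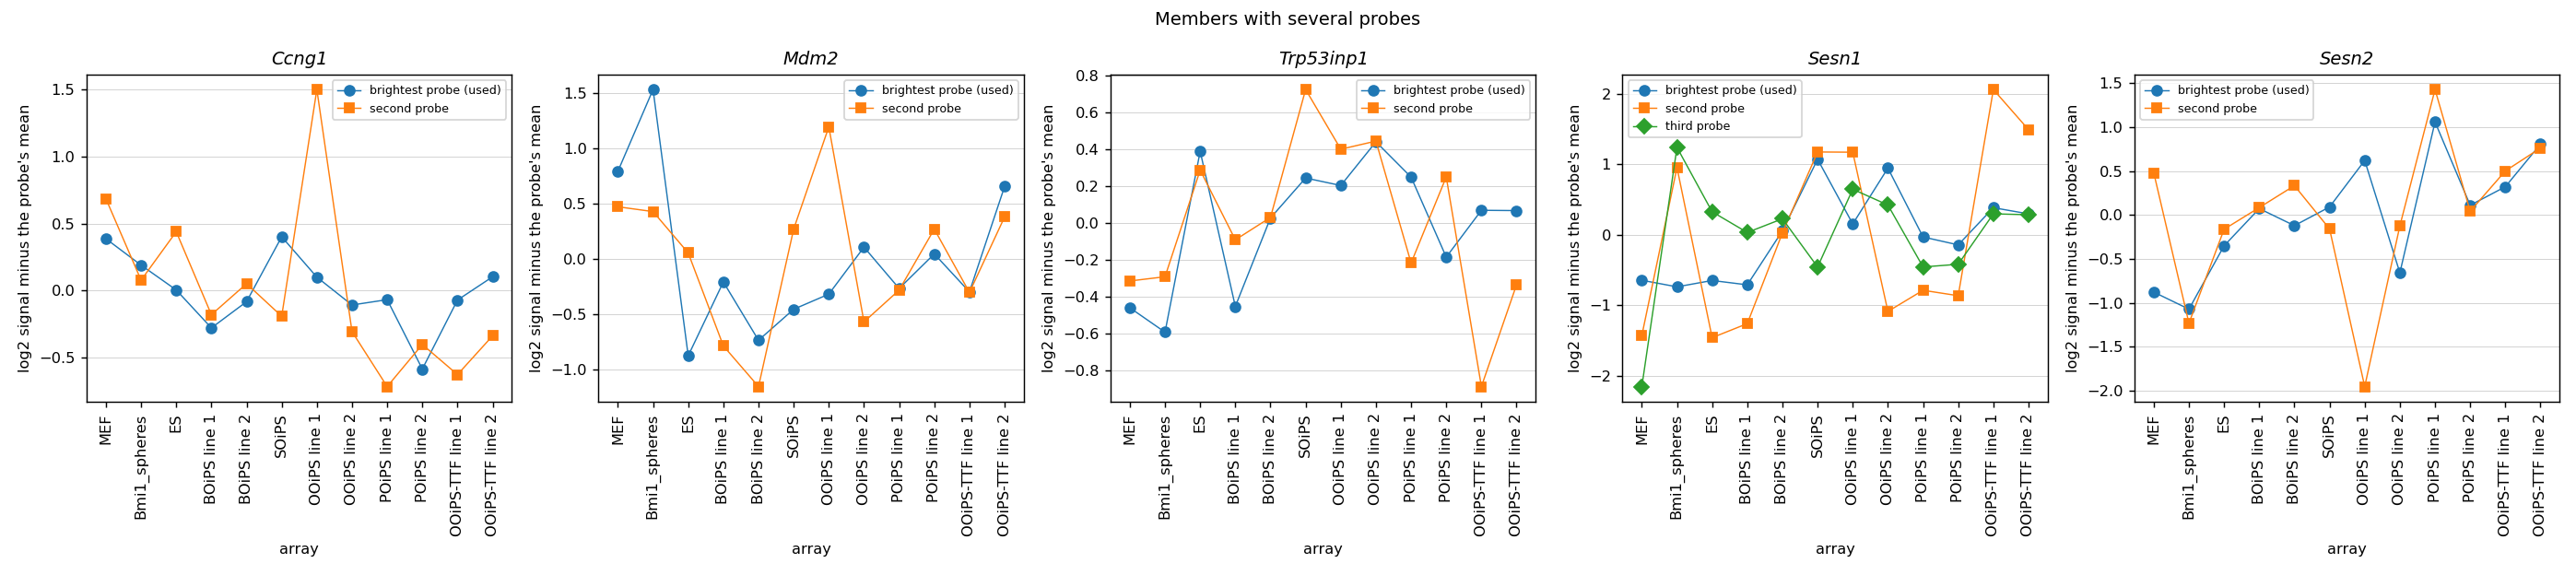
Log2 signal minus the probe's own mean over the 12 arrays (vertical axis), by array (horizontal axis), for the 5 members with several probes; lines join the arrays of 1 probe only to guide the eye. For Mdm2 the brightest probe peaks in Bmi1 spheres and the second in OOiPS line 1, and for Sesn2 the probes part in MEF and OOiPS line 1.

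Bax, Bbc3, Pmaip1 and Perp act in cell death. Bax encodes the protein that permeabilises the outer mitochondrial membrane. Its probe covers 156 bases of the mm7 build with its 60 letters, and 2 forward frames are free of stop codons.

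Bax probe, chr7:41641827-41641982, minus strand: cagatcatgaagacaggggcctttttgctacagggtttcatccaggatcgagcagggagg

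Bax was at 0.64 in MEF, 0.38 in ES and 0.14 in Bmi1 spheres. The iPS lines ran from -0.19 in POiPS line 2 to 1.09 in OOiPS-TTF line 1, with a median of 0.36, and overlapped all 3 of these samples. The difference from MEF was -0.22 (95% interval -1.39 to 0.95, adjusted p = 0.808 in limma). Spots of this probe on 1 array had a median SD of 0.18.

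Bbc3 encodes Puma, a BH3-only protein that frees Bax from its inhibitors. Its single probe was saturated on all 12 arrays, with a mean signal between 65249 and 65285 intensity units. No comparison of Bbc3 can be made from these arrays.

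Pmaip1 encodes Noxa, a BH3-only protein that blocks Mcl1. It was at 4.74 in MEF, 3.79 in ES and between 3.79 in BOiPS line 1 and 4.81 in OOiPS line 1, with a median of 4.38, in the iPS lines; OOiPS-TTF line 2 was saturated. In Bmi1 spheres it was at -7.04 and not well above background. The sphere spot had a mean signal of 74.5 over a local background of 42, and a processed signal of 14.3, against 50162 in MEF. On every other array the processed signal was 22118 or more.

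Against Bmi1 spheres, Pmaip1 in the iPS lines was at least 2606-fold higher, with the spheres raised to their array's lowest signal well above background (adjusted p = 1.69e-07 in limma). Of all genes tested, 8.57% passed in this comparison, 5.82% as higher and 2.75% as lower, and 2 of 10 members did so. Bmi1 spheres were at least 3277-fold below MEF, in 1 array against 1 with no test. The difference of iPS lines from MEF was -0.33 (95% interval -1.32 to 0.66), so that iPS lines and MEF were not told apart.

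Perp encodes a tetraspan protein of desmosomes that takes part in p53-dependent apoptosis. Its probe was saturated in MEF, at 5.25, and the spot read 71640 processed units there. ES was at 2.05 and the iPS lines ran from 1.98 in OOiPS-TTF line 1 to 3.84 in BOiPS line 1, with a median of 2.53. Bmi1 spheres were at -5.30, with a processed signal of 47.6 that was still well above background. All 9 iPS lines were below MEF and above the spheres, and 8 of 9 were above ES.

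Perp was at least 5.83-fold lower in the iPS lines than in MEF, a log2 difference of -2.54 (SE 0.68, adjusted p = 0.0392 in limma). In this comparison 10.9% of all genes passed, 8.17% as higher and 2.75% as lower, and 1 of 10 members did so, a share close to that of all genes. The call was not stable. It was lost with slide as a fixed block (-2.25, adjusted p = 0.151), and it passed in 13 of 22 alternatives. Among the 4 arrays of the slide that held MEF the difference was the same, -2.25. That setting called 0 of all genes, so the loss of Perp there does not bear on Perp itself. Leaving out BOiPS line 2, SOiPS, OOiPS line 2, POiPS line 2 or OOiPS-TTF line 1 each ended it, with differences from -2.58 to -2.45 and adjusted p from 0.0503 to 0.0570.

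Against Bmi1 spheres, Perp in the iPS lines was 258-fold higher, a log2 difference of 8.01 (SE 0.68, adjusted p = 3.59e-05 in limma). It was 8.14 within the slide that held the spheres (adjusted p = 0.0258), where Pmaip1 was 11.43 higher (adjusted p = 0.0179). Both genes passed in all 22 alternatives. Spheres were at least 1506-fold below MEF, with no test and with MEF saturated. Perp is known to be abundant in stratified epithelium. The 10 keratinocyte and stratified epithelium markers were well above background for 7 in MEF, 8 in Bmi1 spheres, 5 in ES and 5 to 8 in the iPS lines, and summed to 4.86 in MEF, 4.90 in Bmi1 spheres, 4.44 in ES and between 2.96 in OOiPS-TTF line 1 and 20.0 in OOiPS line 1 in the iPS lines, with Trp63 well above background on 3 of 12 arrays. Their part in the Perp values was not tested. The spheres had the highest share of spots well above background, 80.0%, beside the 2 lowest signals among the brightest probes of the members.

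**Figure D3:**
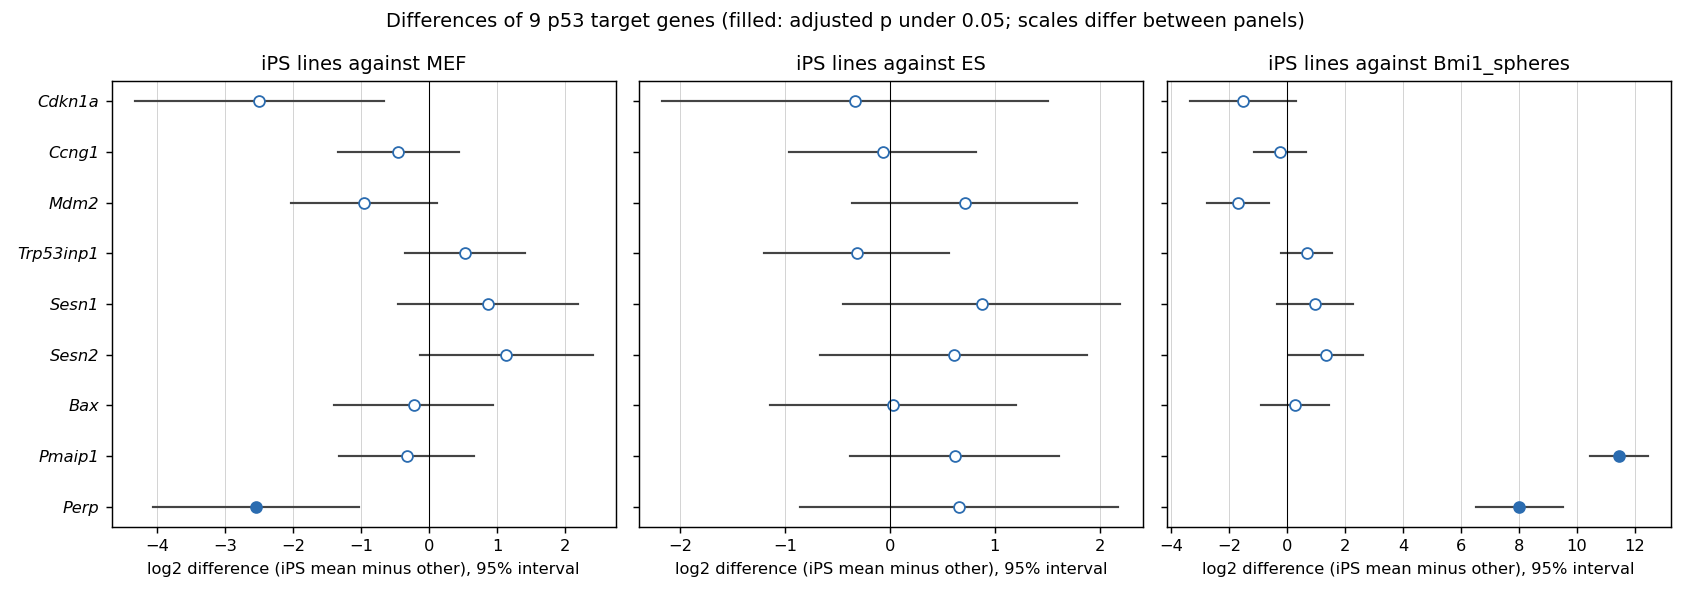
Log2 difference of the mean of the 9 iPS lines from MEF, ES and Bmi1 spheres (horizontal axes, which differ in scale) for 9 members (vertical axis), with 95% intervals from limma; filled points have an adjusted p under 0.05. Perp is filled at -2.54 against MEF, no member is filled against ES, and Pmaip1 and Perp are filled at 11.45 and 8.01 against Bmi1 spheres; the sphere value of Pmaip1 is not well above background.

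Against ES, 0 of 10 members passed, where 0.0275% of all genes did, 0.00787% as higher and 0.0197% as lower (7 of 25427 in limma; 1139 genes had an unadjusted p under 0.05). None of the members had an unadjusted p under 0.05. The Cdkn1a difference was -0.33 (SE 0.83), and the 95% interval of Perp ran from -0.85 to 2.17 around 0.66. With 1 ES array, differences inside these intervals were not detectable.

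ES and MEF, 1 array each and with no test, were set apart by 3 members at least 2-fold lower in ES: Perp, at least 9.21-fold, Cdkn1a, 4.48-fold, and Mdm2, 3.17-fold. The second Mdm2 probe gave -0.42 on the log2 scale for ES against MEF, and the mean of both probes -1.04, where the brightest gave -1.67. With the spread of the 4-class limma model as an alternative, 0 of the 3 passed, and Perp had an adjusted p of 0.0716. At that fold, 47.3% of all genes differed, 26.7% as higher and 20.6% as lower in ES. Between Bmi1 spheres and MEF, where 50.5% of genes differed at least 2-fold, 33.0% as higher and 17.6% as lower in spheres, 2 of 10 members did, Pmaip1 and Perp. Cdkn1a was 1.95-fold lower in spheres and Mdm2 1.67-fold higher, both short of that fold, and the second Mdm2 probe gave -0.04 on the log2 scale. The second Sesn2 probe gave -1.71 for spheres against MEF, where the brightest gave -0.19. The other Sesn1 probes gave 3.39 and 2.38, where the brightest gave -0.09, but neither was well above background in MEF.

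Among the iPS groups, no member passed in limma in any of 3 comparisons, in each of which 0% of genes passed. For BOiPS against the hedgehog-agonist lines, which differ in the agent given with Oct4, Cdkn1a differed by -0.16 (95% interval -2.08 to 1.75) and Sesn1 by -0.84 (95% interval -1.82 to 0.15); 2515 genes had an unadjusted p under 0.05. For OOiPS against POiPS, which differ in the small molecule, Cdkn1a differed by 0.16 (95% interval -2.10 to 2.41) and Perp by -0.72 (95% interval -2.44 to 1.00); 1228 genes did so. For OOiPS-TTF against OOiPS, which differ in the age and site of the starting fibroblasts, Cdkn1a differed by 0.35 (95% interval -1.91 to 2.60), and 1640 genes did so. Second probes of some members gave larger differences. For BOiPS against the hedgehog-agonist lines the second Mdm2 probe gave -1.16, where the brightest gave -0.25. For OOiPS against POiPS the second Sesn2 probe gave -1.77, where the brightest gave -0.60. For OOiPS-TTF against OOiPS the second Sesn2 probe gave 1.67 against 0.58, and the second Ccng1 probe -1.08 against 0.02. Each group held 1 or 2 lines.

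Regulators of p53 were a list of 16 genes, of which 15 were measured. Trp53, which encodes p53, was at 3.66 in MEF, 3.16 in Bmi1 spheres, 4.14 in ES and between 3.31 and 4.53 in the iPS lines. In iPS lines against MEF, where 8.17% of all genes rose and 2.75% fell, 3 of 15 rose and 1 fell, with a median difference of 0.65 against 0.45 for all genes. Chek2, a damage-activated kinase, rose by 3.58 (SE 0.93, adjusted p = 0.0339 in limma), the acetyltransferase gene Ep300 by 3.32 (adjusted p = 0.00306) and the deacetylase gene Sirt1 by 3.09 (adjusted p = 0.0413). The kinase gene Hipk2 fell by 3.31 (adjusted p = 0.0115), and it was also lower in the iPS lines than in the spheres, by -2.71 (adjusted p = 0.0337), the only regulator of 15 that passed there.

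Cdkn2a, the source of the Arf and p16 transcripts and a known target of Bmi1 repression, was at 0.33 in MEF and not well above background in Bmi1 spheres, at least 154-fold lower in 1 array against 1. In the same comparison 3 of 15 regulators were higher in spheres and 1 lower, where 33.0% of all genes were higher and 17.6% lower. Those higher were Ep300, Chek2 and Chek1, by 3.69, 2.20 and 1.88. In ES against MEF 5 of 15 regulators were higher and 2 lower, where 26.7% of all genes were higher and 20.6% lower. The largest differences were those of Chek2 at 4.36, Cdkn2a at -3.45, Chek1 at 3.31 and Hipk2 at -3.26. Cdkn2a was at -3.12 in ES and between -6.24 and -0.44 in the iPS lines.

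Other targets of p53 were a list of 34 genes, all measured. In iPS lines against MEF 0 rose and 1 fell, again beside 8.17% and 2.75% of all genes, with a median of -0.05. The gene that fell was Dram1, a lysosomal regulator of autophagy (adjusted p = 0.0146 in limma), which was at -4.13 in MEF and well above background in 1 of 9 iPS lines. Its difference was -1.48 with each iPS signal below its array's lowest signal well above background raised to that level, so the size of the fall is set by the arrays' floors. The adjusted p values of Dram1, here and against the spheres, come from the unraised signals, whose iPS mean was -7.02. The raised differences were not tested. Against the spheres 3 of 34 were higher and 1 lower, where 5.82% of all genes were higher and 2.75% lower, so that the share called was near that of all genes: Trp53i11 by 5.79 (adjusted p = 0.000315), Rprm, a mediator of arrest, by 3.76 (adjusted p = 0.0499), Ckap2 by 2.05 (adjusted p = 0.0390) and Dram1 (adjusted p = 0.00821), by -1.87 with dim signals raised in the same way. The median was 0.39 there and 0.00 for all genes. Against ES 0 of 34 and 0 of 15 regulators passed, with 1 and 0 at an unadjusted p under 0.05.

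With no test, 14 of these 34 targets were at least 2-fold lower and 6 higher in Bmi1 spheres than in MEF. Of all genes, 17.6% were lower and 33.0% higher. The median was -0.56 against 0.38 for all genes. Large differences were those of Thbs1 (-9.42), Rprm (-6.50) and Trp53i11 (-4.37). Thbs1 encodes a secreted matrix protein that fibroblasts make in quantity. In ES against MEF 11 were lower and 7 higher, where 20.6% of all genes were lower and 26.7% higher. Thbs1 was at least 1243-fold and Fas, a death receptor, at least 41.0-fold lower in ES, and Tgm2 was higher by 4.11.

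**Figure D4:**
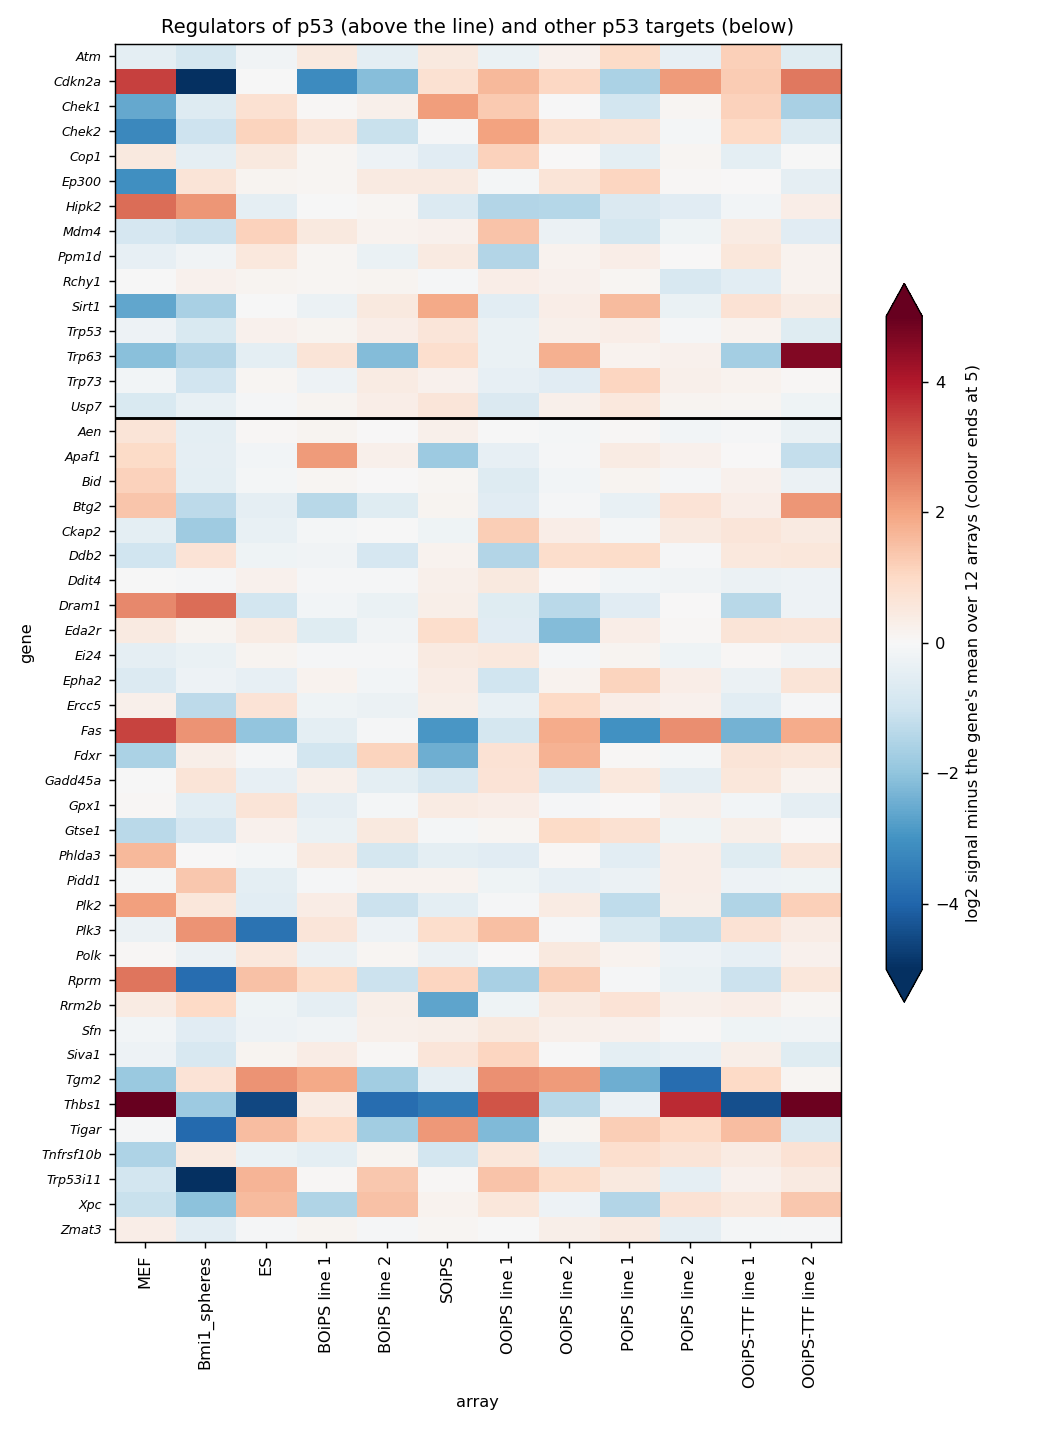
Log2 signal minus the gene's mean over the 12 arrays (colour, which ends at 5 in both directions) for 15 regulators of p53 above the line and other targets below it (rows), by array (columns). Thbs1 is dark red in MEF and reddest among iPS lines in OOiPS-TTF line 2 and POiPS line 2, and Cdkn2a and Trp53i11 are dark blue in Bmi1 spheres.

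For 4 members, the genes with the most similar pattern over the 12 arrays were listed by the root mean square difference of centred log2 values among 14155 genes above background on every array. Those nearest to Cdkn1a were Arl6ip5 (0.38), BE953138 (0.40) and Klk10 (0.40), where Cdkn1a itself departed from its mean by 1.02. Those nearest to Mdm2 were Twist1 (0.26), Ctsz (0.26) and 9430064G09Rik (0.27), against 0.66 for Mdm2. For Ccng1 they were Atp5d (0.15), Mllt3 (0.17) and Mapre1 (0.17), against 0.26. For Perp they were AK042676 (0.82), Dapk1 (0.88) and ENSMUST00000063725 (0.88), against 2.44.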

How the data were processed

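Total RNA of 12 samples was labelled with Cy3 and hybridised to 1 array each. The deposited intensity values are processed signals from Agilent Feature Extraction 9.5.3.1, background-subtracted and unscaled across arrays, per the file headers; deposited mean and local background signals served the normexp alternative. Flags for background, saturation and outliers are also from the deposited files, per the file headers. Further steps taken by the authors are not stated in these sources.

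Of 43379 gene spots, outlier spots were left out and spots of a probe averaged as log2 processed signal minus the array's 75th percentile. A gene took its probe with the highest mean signal among those well above background on at least 1 array. Probes were named from RefSeq by accession (23082) or symbol (9655), or kept their deposited name (8437). Probe positions are in mm7. Group differences were tested with limma 3.58.1 in R 4.3.3, in a model of 4 classes (8 residual degrees of freedom) or, between iPS groups, 8 groups (4 residual degrees of freedom), with Benjamini-Hochberg adjustment over 25427 genes and a threshold of 0.05. Single arrays were taken to vary like the iPS lines. For 1 array against 1, no test was made; a gene counted where its signals differed at least 2-fold and the brighter was well above background. A probe dim on all arrays of a group is given as a bound against the array's lowest signal well above background, and a saturated one as at least its measured fold. The number of arrays limits the precision. The fit was tested on simulated data.

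The members and lists were chosen with earlier results of these data known. Named genes were all members, up to 4 genes per pathway list and comparison with the largest difference among those called, label checks, and the 3 genes most like each of 4 members; Trp53, and Cdkn2a in ES and iPS lines, were named outside this rule after their values were seen. Of the other targets, 1 gene is counted but not reported by name here. Alternatives were normexp with an offset of 50, quantile normalization, another percentile, filters, averaging all probes, a variance trend on intensity, slide as a block, the 8-group model, and leaving out lines. Slides were read from the names of the deposited files.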

Additional observations from a re-analysis of the deposited data

How the results depend on the processing

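The count of members called in iPS lines against MEF was 1, and it moved with the model and the lines used. It was 2 with an intensity trend and without the 3 lines nearest to MEF (chosen after seeing the data). It was 0 with slide as a fixed block, in the 8-group model, without the OOiPS-TTF lines and within slide 1, and leaving out 1 line at a time gave 0 to 2. Genes called there numbered 2777, against 1796 with slide as a fixed block and 0 within slide 1, and 2402 to 3353 leaving out lines. Quantile normalization moved the median of all genes from 0.45 to 0.12 and the split from 2078 higher and 699 lower to 1635 and 974, and normexp gave 1828 and 1089; no member changed sign in this comparison under these scalings. Genes called against ES numbered 7, against 59 with normexp, 89 with quantile normalization, 2 with the filter on 6 arrays or an intensity trend, 1 with the mean of all probes, 0 with slide as a fixed block, in the 8-group model, without the OOiPS-TTF lines, within slide 1 and without the 3 lines nearest to MEF, and 0 to 7 leaving out lines. Against Bmi1 spheres 2 members passed in 17 of 22 alternatives and 3 in the other 5, while genes called went from 2179 to 759 within slide 3, and normexp split them into 1453 higher and 1082 lower where the main split was 1480 and 699. With the pooled spread of the 4-class model, ES against MEF had 0 members and 1480 genes called in place of 3 and 12036, and Bmi1 spheres against MEF had 985 genes in place of 12851. BOiPS against hedgehog-agonist lines had 2405 genes called with no filter (51 higher, 2354 lower) and 0 with it.

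Some signs turned. For Bax against ES (0.03) the values were -0.11 with slide as a fixed block and within slide 1, -0.025 without the OOiPS-TTF lines, and from -0.054 to 0.106 leaving out 1 line at a time (below 0 without SOiPS, POiPS line 1 or OOiPS-TTF line 1). For Ccng1 against ES (-0.07) the value was 0.024 without the 3 lines nearest to MEF, and for Sesn1 against the spheres (0.96) it was -0.32 with the mean of all probes, 2 of which are dim. The mean of all probes also turned Sesn1 from -0.09 to 1.89 in Bmi1 spheres against MEF, where 3 members were then called in place of 2, and in ES against MEF it turned Sesn1 from -0.0033 to 0.81 and Sesn2 from 0.53 to -0.057 and moved Mdm2 from -1.67 to -1.04. In these 2 comparisons normexp gave 0.011 and 0.063 for Sesn1, and quantile normalization turned Trp53inp1 from -0.13 to 0.022 in spheres against MEF.

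Clone numbers did not pair the lines: correlations of same-numbered lines ran from -0.16 to 0.24. With the clone number as a replicate block, 0 members and 0 genes were called in the 3 comparisons between iPS groups, as without it. A slide block could not be fitted for BOiPS against the hedgehog-agonist lines, since slide and group cannot be told apart there. Saturation limits Bbc3 on all arrays and Perp and Ccng1 in MEF, and ES, MEF and the spheres rest on 1 array each.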
